A study of Mus musculus with 8 samples.

Results

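A set of 7 genes that encode subunits of the GABA-A receptor were examined across the cell types of injured mouse forebrain. They are Gabra2, Gabra3, Gabra4 and Gabra5 (alpha subunits), Gabrb1 and Gabrb2 (beta subunits) and Gabrd (the delta subunit). These 7 genes were taken by symbol from the 54232 genes that the count files list, and all 7 were found. Nuclei came from a frozen cube of forebrain beside the lesion, taken from Swiss Webster mice, all male and 10 weeks old, and were sequenced one by one (single-nucleus RNA sequencing). Each of 4 groups has 2 libraries: control surgery, BCAS alone, traumatic brain injury alone (TBI), and a group given both (BCAS+TBI). The labels number the libraries of a group as biological replicates, and they give BCAS only as an abbreviation, which the title of the series ties to cerebral hypoperfusion. The labels used here do not give what the control surgery was, the interval from surgery to collection, or whether a library came from 1 animal.

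GABA-A receptors are chloride channels built of 5 subunits around a pore, most often alpha, beta and gamma subunits. Receptors with alpha2 or alpha3 are known mainly from synapses, where they carry brief (phasic) inhibition. Those with alpha4 and delta, or with alpha5, are known mainly from outside the synapse, where they respond to low ambient GABA and carry a steady (tonic) inhibitory current. The beta subunits occur in both kinds and help form the GABA binding site.

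Nuclei were grouped by expression and named by lists of marker genes, and the GABA-A receptor genes were left out of the genes used to group them. Of 53390 barcodes, 35171 nuclei fell into 26 named types and 10389 clustered nuclei stayed unnamed. A name ending in "-like" rests on markers only. All the markers listed for endothelial, microglial, oligodendrocyte, fibroblast, choroid plexus, Lamp5 interneuron, Drd2 striatal and near-projecting cortical nuclei were highest in the type so named. No marker of the upper-layer cortical, layer 5 cortical or Baiap3 inhibitory lists was highest in its own type. In claustrum and layer 6b-like nuclei, 3 of 6 markers reached 10 CPM, and Nr4a2, Gnb4 and Oprk1 were highest there. Cplx3 and Nxph4 were at 0 CPM in the median library of this type. A cluster of 373 nuclei led by Ctgf, another marker on that list, was named layer 6 corticothalamic-like. Levels of that type thus include nuclei with markers of both, and the layer 6b part of the other name is not borne out. Baiap3-like excitatory and inhibitory nuclei are named after a leading gene, which is no cell type name. Levels are given as CPM, the UMIs (unique molecular identifiers, 1 per captured RNA molecule) of a gene after scaling each type in each library to the same total (CPM, as in counts per 1e+06). In sums of this kind, fewer cells of a subtype within a type and less RNA per cell cannot be told apart. The libraries held 28118725 to 56135192 UMIs and split at the largest gap into a shallower set (control 1, BCAS 1, TBI 1, BCAS+TBI 2; at most 33363564 UMIs) and a deeper set (the other four; at least 42651388), with 1 library of each group in each set. Pairs of libraries shared at most 0.272% of barcode sequences.

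Gabra2, Gabra4 and Gabrb1 sit together on chromosome 5 of GRCm38 (RefSeq gene spans), with Gabra2 at chr5:70958392-71095849 on the minus strand, Gabra4 at chr5:71569734-71658308 on the minus strand and Gabrb1 at chr5:71657921-72149572 on the plus strand. Gabra4 and Gabrb1 are transcribed away from each other and share 388 bases at their starts, yet they had different highest types (thalamic-like and astrocyte-like nuclei). Gabra5 lies at chr7:57407669-57591016, Gabrb2 at chr11:42419515-42632591, Gabra3 at chrX:72432676-72656919 and Gabrd at chr4:155384979-155398098. Gabrd spans 13.1 kb, the shortest of the 7, and the others span 88.6 to 492 kb. RefSeq promoter windows matched 6 of the 7 genes (not Gabrd). The 250 bases before the start of Gabra2 (chr5:71095850-71096099, minus strand) and of Gabra5 (chr7:57510060-57510309, minus strand) are shown because these alpha subunit genes both had their 2 highest levels in the 2 hippocampal neuron types. The Gabra5 window lies within the RefSeq span of the gene, before the start of a shorter transcript. Capitals mark CCAAT or GGGCGG, on either strand.
Gabra2: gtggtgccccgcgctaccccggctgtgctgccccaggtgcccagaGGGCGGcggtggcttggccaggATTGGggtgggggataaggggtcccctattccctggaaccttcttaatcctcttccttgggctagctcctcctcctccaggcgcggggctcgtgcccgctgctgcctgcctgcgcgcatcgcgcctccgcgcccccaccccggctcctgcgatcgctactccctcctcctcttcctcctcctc
Gabra5: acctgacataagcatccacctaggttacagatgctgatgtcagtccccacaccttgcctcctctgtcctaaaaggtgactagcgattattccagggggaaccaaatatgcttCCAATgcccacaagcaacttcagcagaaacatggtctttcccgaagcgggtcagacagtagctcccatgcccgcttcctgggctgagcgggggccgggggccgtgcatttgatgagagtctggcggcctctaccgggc
CCAAT stands in both windows on 1 strand or the other, and in 33.85% of the 32851 promoter windows of this length. GGGCGG stands in that of Gabra2 and in 32.7% of all windows. A match says only that these letters are there.

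**Figure D1:**
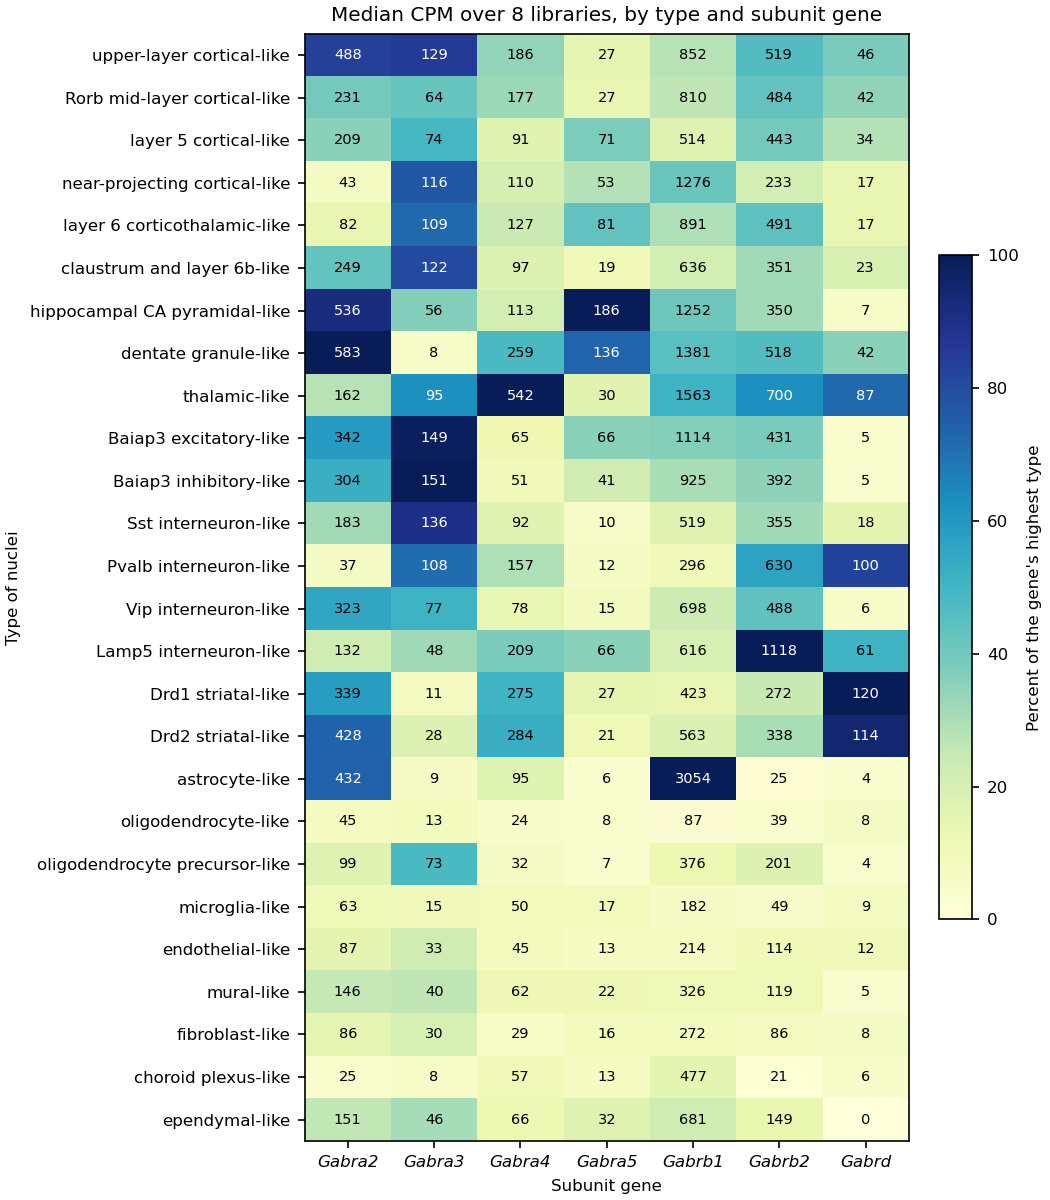
Median CPM over 8 libraries (number in each cell) of the 7 subunit genes (columns) in 26 types of nuclei (rows), coloured by the percent of each gene's highest type. Gabra4 stands out in thalamic-like nuclei (542), Gabrb1 in astrocyte-like nuclei (3054) and Gabrb2 in Lamp5 interneuron-like nuclei (1118).

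Gabra2, an alpha subunit of synaptic receptors, was highest in types with hippocampal markers. In dentate granule-like nuclei it reached 543 and 660 CPM in the control libraries, 582 and 583 in BCAS, 487 and 676 in TBI, and 676 and 483 in BCAS+TBI. The groups overlap, and the highest and lowest values both occur in libraries with TBI. Hippocampal CA pyramidal-like nuclei followed with a median of 536 CPM (range 439 to 691), then upper-layer cortical-like nuclei with 488 (422 to 537). The ranges of these 3 types overlap, but within a library both hippocampal types were above upper-layer cortical-like nuclei in 8 of 8 libraries, while dentate granule-like nuclei were above CA pyramidal-like nuclei in only 5 of 8. Upper-layer cortical-like nuclei were above astrocyte-like nuclei (median 432) in 8 of 8. Other cortical types had less, with 249.5 CPM in claustrum and layer 6b-like, 231 in Rorb mid-layer cortical-like and 209 in layer 5 cortical-like nuclei. Layer 6 corticothalamic-like nuclei had a median of 82.3 CPM and near-projecting cortical-like nuclei 42.9. Interneurons divided in the same way, with 323 CPM in Vip-like, 183 in Sst-like and 36.6 in Pvalb-like nuclei (range 22.2 to 53.0).

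Gabra3 encodes the other synaptic alpha subunit here. Its highest medians were 151 CPM in Baiap3 inhibitory-like, 149 in Baiap3 excitatory-like, 136 in Sst interneuron-like and 129 in upper-layer cortical-like nuclei. All neighbours in its order overlap. The low end is where it differs from Gabra2: dentate granule-like nuclei, the highest type for Gabra2, had a median of 7.9 CPM of Gabra3 (range 2.1 to 21.3, 79 UMIs in all), and Drd1 striatal-like nuclei had 11.2. Drd1 and Drd2 striatal-like nuclei, named for the dopamine receptor of each kind of striatal projection neuron, had 339 (Drd1) and 428 CPM (Drd2) of Gabra2. In the oligodendrocyte lineage, Gabra3 had a median of 72.8 CPM in precursor-like nuclei and 12.7 in oligodendrocyte-like nuclei, and the ranges (47.2 to 97.9 and 7.1 to 33.9) do not meet.

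Gabra4, the alpha subunit that pairs with delta outside the synapse in thalamus, striatum and dentate gyrus, was highest in thalamic-like nuclei. There it stood at 488 and 627 CPM in control, 471 and 586 in BCAS, 455 and 617 in TBI, and 602 and 497 in BCAS+TBI. Every one of these 8 values was above every value of the next type, Drd2 striatal-like nuclei (247 to 390). Drd2 striatal-like (median 284), Drd1 striatal-like (275) and dentate granule-like nuclei (259) overlap and came next. Sst-like and Vip-like interneurons had medians of 91.7 and 77.7 CPM, and Baiap3 inhibitory-like nuclei 51.0.

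Gabrd encodes the delta subunit. Drd1 striatal-like nuclei had the highest median, 120 CPM: 113 and 127 in control, 148 and 114 in BCAS, 155 and 106 in TBI, and 112 and 187 in BCAS+TBI. These values come from 266 UMIs in all. Drd2 striatal-like (114), Pvalb interneuron-like (99.8) and thalamic-like nuclei (87.3) followed with overlapping ranges. Vip interneuron-like, hippocampal CA pyramidal-like and both Baiap3-like types had medians of 4.6 to 7.0 CPM, no higher than oligodendrocyte-like nuclei (8.0). Across the 26 types, Gabrd was the gene most like Gabra4 and Gabra4 the gene most like Gabrd, among 8230 genes with at least 50 CPM in some type (Pearson r = 0.84 of the mean log2(CPM + 10)). This r describes the 26 types, which share libraries, and carries no p-value.

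Gabra5, the alpha subunit of extrasynaptic receptors in hippocampal pyramidal cells, was highest in hippocampal CA pyramidal-like nuclei. It stood at 179 and 184 CPM in control, 159 and 221 in BCAS, 198 and 188 in TBI, and 198 and 123 in BCAS+TBI. The lowest value is that of BCAS+TBI 2, and the groups otherwise overlap. Dentate granule-like nuclei had a median of 136 CPM (98.1 to 189) and were lower than CA pyramidal-like nuclei in 8 of 8 libraries. In the cortex, medians were 80.6 CPM in layer 6 corticothalamic-like, 70.7 in layer 5 cortical-like and 52.5 in near-projecting cortical-like nuclei, against 26.9 in upper-layer cortical-like, 26.6 in Rorb mid-layer cortical-like and 18.9 in claustrum and layer 6b-like nuclei. The lowest value of the layer 6 corticothalamic-like and layer 5 cortical-like types (50.6) was above the highest of the upper-layer and Rorb types (40.8), while near-projecting cortical-like nuclei (14.4 to 83.9) overlap both. Among interneurons, Lamp5-like nuclei had 66.5 CPM, while Sst-like nuclei had 10.2 and Pvalb-like nuclei 12.2.

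Gabrb1, the beta1 subunit gene, was highest by CPM in a glial type. Astrocyte-like nuclei had 2656 and 3754 CPM in control, 2570 and 3291 in BCAS, 2817 and 3332 in TBI, and 3321 and 2549 in BCAS+TBI. All 8 were above the highest value of thalamic-like nuclei, the next type (median 1563, range 1331 to 1724). Dentate granule-like (1381), near-projecting cortical-like (1276) and hippocampal CA pyramidal-like nuclei (1252) came next and overlap. CPM is a share of RNA, and astrocyte-like nuclei had a median of 1955 UMIs against 7048 in thalamic-like nuclei. In control 1, 395 astrocyte-like nuclei held 1727 Gabrb1 UMIs and 354 thalamic-like nuclei held 2524. The order by CPM is thus not an order per nucleus. Gabrb1 was found in a median of 94.0% of astrocyte-like and 95.5% of thalamic-like nuclei.

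Gabrb2, the beta2 subunit gene, was highest in Lamp5 interneuron-like nuclei, at 1158 and 1318 CPM in control, 992 and 1342 in BCAS, 860 and 1238 in TBI, and 1078 and 1039 in BCAS+TBI. The lowest of these was above the highest of thalamic-like nuclei (median 700, range 621 to 851), and Pvalb interneuron-like nuclei followed (630). Astrocyte-like nuclei, where Gabrb1 peaked, had a median of 24.6 CPM of Gabrb2.

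**Figure D2:**
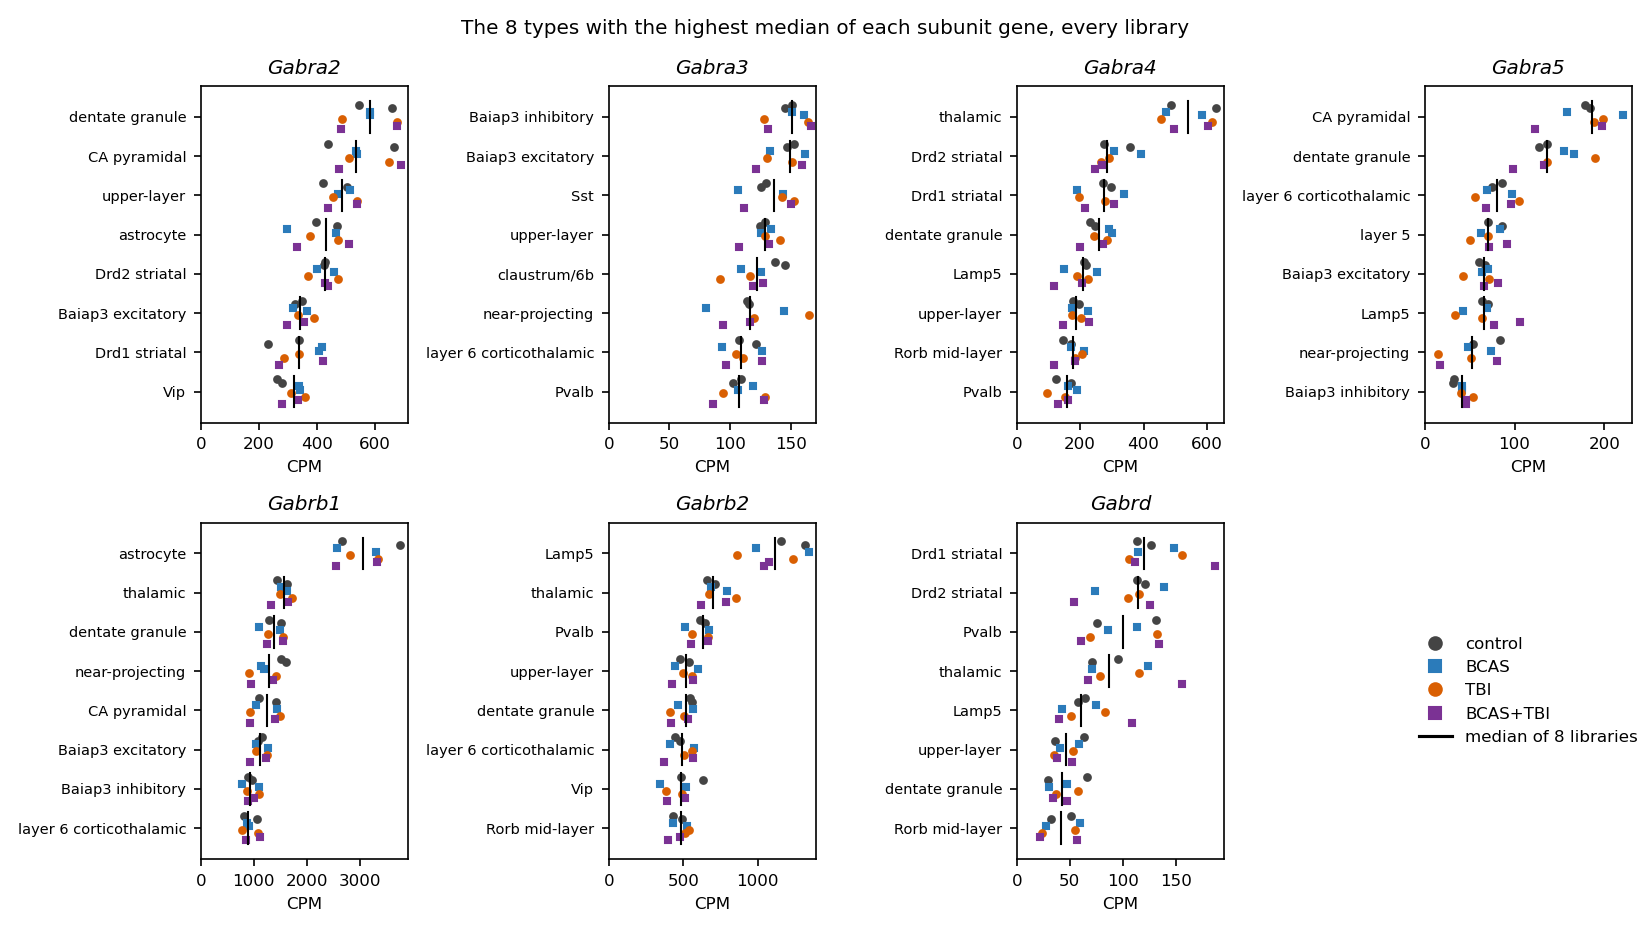
CPM (horizontal axis, from 0, its scale differing between panels) of each subunit gene in every library, for the 8 types with the highest median, with points coloured by group and a black bar at the median of 8 libraries. Values of the 4 groups are interleaved in each top type, and the first type is separate from the next for Gabra4, Gabrb1 and Gabrb2.

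The balance of extrasynaptic over synaptic subunit genes was taken as log2 of the summed CPM of Gabra4, Gabra5 and Gabrd plus 1, over that of Gabra2 and Gabra3 plus 1. Because different genes are not on 1 scale, its sign has no meaning of its own and only differences between types or libraries are read. Thalamic-like nuclei had the highest median, 1.32, with 1.23 and 1.15 in control, 1.57 and 1.21 in BCAS, 1.4015 and 1.52 in TBI, and 1.10 and 1.99 in BCAS+TBI. Choroid plexus-like nuclei had the next median, 1.13, but with few UMIs of these genes they ranged from -0.57 to 2.48. Lamp5 (0.95) and Pvalb interneuron-like nuclei (0.88) were also high, while Sst (-1.33) and Vip interneuron-like nuclei (-1.94) were low. All 8 values of Lamp5-like and Pvalb-like nuclei (0.46 or more) were above all 8 of Sst-like and Vip-like nuclei, which were below 0 in every library. Within the hippocampus, dentate granule-like nuclei had -0.42 and CA pyramidal-like nuclei -1.12, and the ranges (-0.73 to 0.01 and -1.37 to -0.70) meet at the edge. In the cortex, layer 6 corticothalamic-like nuclei had 0.24 and upper-layer cortical-like nuclei -1.24. Baiap3 inhibitory-like nuclei were lowest at -2.21. With each gene weighted alike (a difference of mean log2(CPM + 1)), Drd1 striatal-like nuclei were highest (0.73) and thalamic-like nuclei had -0.10.

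**Figure D3:**
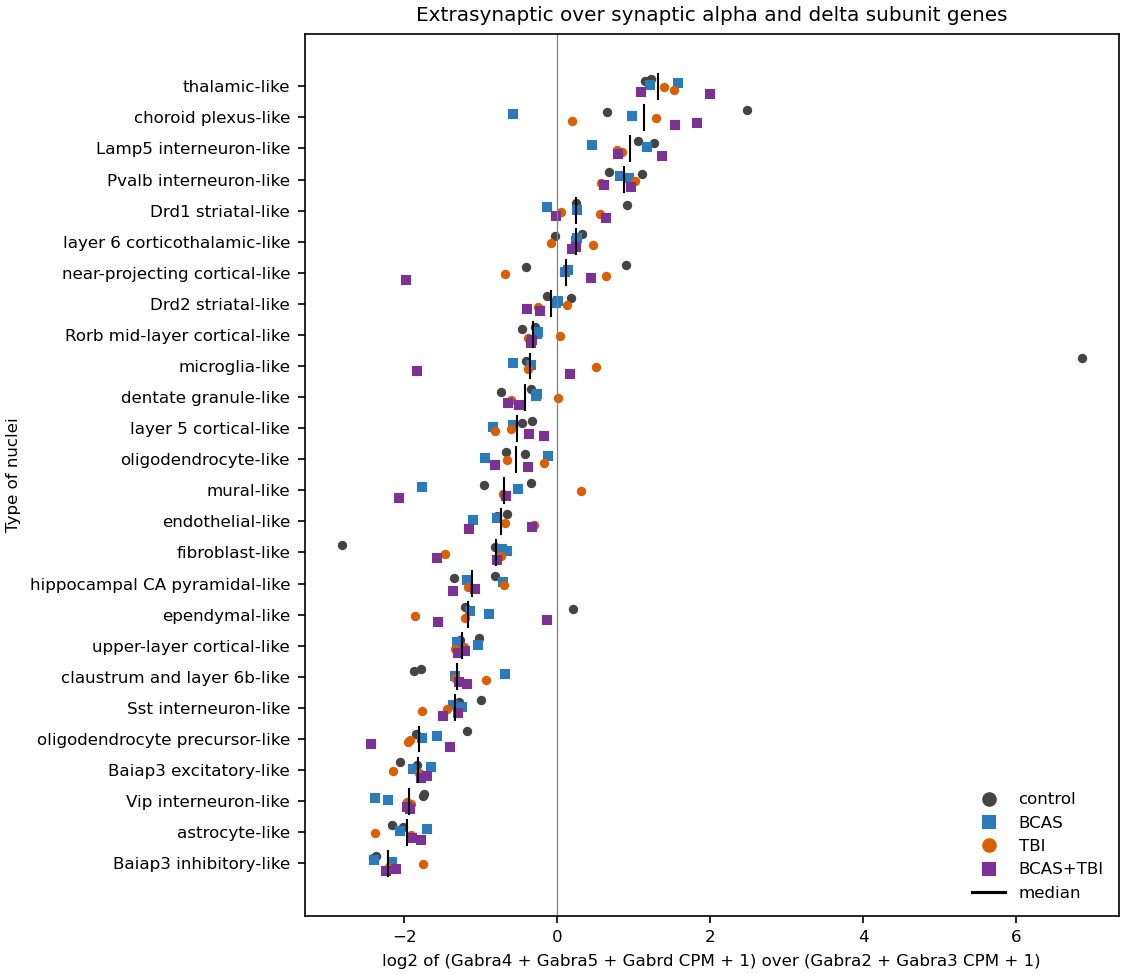
Log2 of extrasynaptic over synaptic subunit genes (horizontal axis) in each type, ordered by the median (black bar), with 1 point per library coloured by group. Thalamic-like, Lamp5 and Pvalb interneuron-like nuclei lie right of Sst and Vip interneuron-like nuclei in every library, and the groups are mixed within most types.

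Across all 8 libraries, in none of the 26 types did the 4 libraries with TBI lie wholly above or below the 4 without it, nor did those with and without BCAS. In thalamic-like nuclei the mean was 1.504 with TBI and 1.29 without it, and in Sst interneuron-like nuclei it was -1.498 with TBI and -1.22 without it. Within each library set, Sst interneuron-like nuclei were lower with TBI: -1.435 and -1.49 against -1.001 and -1.36 in the shallower set, and -1.77 and -1.30 against -1.28 and -1.25 in the deeper. Sst interneuron-like nuclei were the 1 type of 26 in which TBI separated the libraries the same way in both sets. BCAS did so in 0 of 26, and no test was made of it. Pvalb interneuron-like, layer 6 corticothalamic-like and near-projecting cortical-like nuclei separated with TBI in opposite ways in the 2 sets. With 2 libraries against 2 in a set, separation can arise without any effect, so 1 of 26 is not read as a change. The widest ranges belong to types with few UMIs of these genes. In microglia-like nuclei the library control 1 stood at 6.86, because no UMI of Gabra2 or Gabra3 was found there, and the other 7 libraries were between -1.83 and 0.51.

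In glial and vascular nuclei, the level that free RNA from neurons could give was measured with 5 neuron genes (Rbfox3, Snap25, Syt1, Camk2a and Slc17a7), whose summed CPM is expressed as a percent of that in excitatory neuron-like nuclei. In astrocyte-like nuclei (median 1955 UMIs per nucleus) these genes reached 6.66% (range 4.35 to 11.2%). Gabrb1 there stood at 288% of its level in excitatory neuron-like nuclei, Gabra2 at 133% and Gabra4 at 45.9%, each above the neuron genes in 8 of 8 libraries. Gabrb2 was at 5.36% and above them in 0 of 8, so its astrocyte level is read as background. Gabra3 (9.60%), Gabra5 (9.81%) and Gabrd (9.43%) were above the neuron genes in 7, 7 and 5 of 8 libraries and within the 3.77 to 19.7% of the single reference genes. All these percents compare shares of RNA, not molecules per nucleus. Median UMIs per nucleus ran from 4177 (dentate granule-like) to 10176 (layer 5 cortical-like) in the excitatory types. Gabra2 was found in a median of 45.3% of astrocyte-like nuclei. In the excitatory types it was found in 19.7% (near-projecting cortical-like) to 88.5% (upper-layer cortical-like). Oligodendrocyte precursor-like nuclei had another set: 78.2% for Gabra3, 40.9% for Gabrb2, 36.6% for Gabrb1 and 31.7% for Gabra2, all above the neuron genes (10.1%) in 8 of 8 libraries. Mature oligodendrocyte-like nuclei had 8.25 to 22.2%, against 10.2% for the neuron genes. The highest was Gabrd, above the neuron genes in 8 of 8 libraries on 33 UMIs in all, and Gabra2 and Gabra3 were above them in 7 of 8. All 7 subunit genes lay within the 7.19 to 25.5% of the single reference genes in this type. Choroid plexus-like nuclei had Gabrb1 at 45.0% and Gabra4 at 27.2% against 8.22%, both above it in 8 of 8 libraries. Ependymal-like nuclei had Gabrb1 at 66.2% against 37.3%, also above it in 8 of 8. The 5 reference genes cover free RNA from neurons only. Free RNA from astrocyte-like nuclei, where Gabrb1 was highest by CPM, was not measured, and its part in the other types was not tested. In microglia-like, endothelial-like, mural-like and fibroblast-like nuclei no subunit gene was above the neuron genes in 8 of 8 libraries. Gabra4 in microglia-like and Gabrd in endothelial-like nuclei were above them in 7 of 8. Gabra4 in microglia-like nuclei (22.4%) lay within the 10.8 to 33.8% of the single reference genes. Gabrd in endothelial-like nuclei (29.0%, on 4 to 11 UMIs a library) was above their 17.3 to 26.5%. Haemoglobin genes were among the leading genes of endothelial-like nuclei, and 4 of them summed to between 1025 and 41722 CPM over libraries, a spread whose part in these values was not tested.

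**Figure D4:**
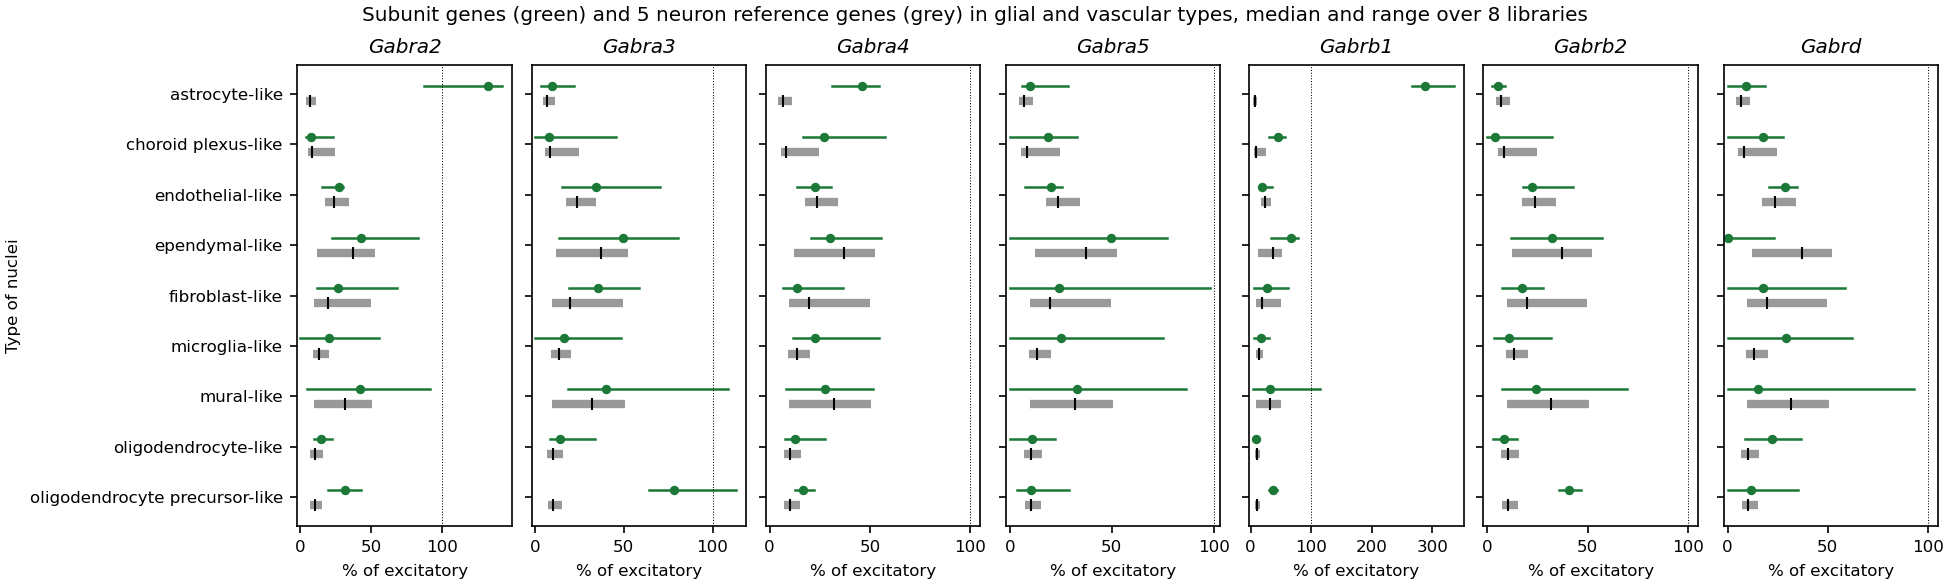
Level in 9 glial, vascular and ventricular types as a percent of that in excitatory neuron-like nuclei (horizontal axis; dotted line at 100), with green points and lines for the median and range over 8 libraries of each subunit gene and grey bars with a black tick for the 5 neuron reference genes. Green lies clear of grey for Gabrb1, Gabra2 and Gabra4 in astrocyte-like nuclei and for Gabrb1 in choroid plexus-like nuclei. It is also clear for Gabra2, Gabra3, Gabrb1 and Gabrb2 in oligodendrocyte precursor-like nuclei.

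The genes whose levels over the 26 types were most like each subunit gene were, for Gabra2, Inhba (r = 0.84), Chst1 (0.82) and Dgkb (0.79). For Gabra3 they were Vsnl1 (0.88), Elavl4 (0.88) and Pitpnm3 (0.86). Gabrd was followed by Kif17 (0.79) and Prmt8 (0.78) for Gabra4, and Gabra4 by Ndrg4 (0.79) and Rhobtb2 (0.74) for Gabrd. For Gabra5 they were Fam131a (0.80), Lsm7 (0.79) and Mal2 (0.78), and for Gabrb1 Pfkm (0.78), Nol4 (0.77) and Tnik (0.76). Gabrb2 had the closest matches, with Mir124a-1hg (0.97), Cnnm1 (0.94) and Rims1 (0.94). Between the 7 genes themselves, r ran from 0.039 (Gabra3 and Gabrd) to 0.84 (Gabra4 and Gabrd), and both synaptic alpha subunit genes had an r of 0.098 with each other.

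The depth of the libraries moved with the levels, in opposite directions for Gabrd and the rest. Gabrd was lower in the deeper set in 25 of 26 types, with a median ratio of 0.587 of the deeper over the shallower set. The other 6 were higher in the deeper set in 21 to 24 of 26 types, with median ratios of 1.13 (Gabra2) to 1.32 (Gabra4). In thalamic-like nuclei, Gabrd averaged 122 ± 25.0 CPM (SD, n = 4) in the shallower set and 72.2 ± 4.8 (SD, n = 4) in the deeper. In Pvalb interneuron-like nuclei the same means were 128 ± 9.4 and 72.7 ± 10.6 (SD, n = 4 each), and no value of one set reached those of the other. Mitochondrial UMIs made up 1.204 to 2.77% of the shallower libraries and 0.511 to 1.04% of the deeper ones. The part of depth or RNA quality in these levels was not tested. The share of all genes that moved with the set was not counted, so these counts are not read as particular to the subunit genes. Over all genes kept by a count filter, library deviations also correlated within a set, at 0.55 to 0.74. The set is a term in all tests of the surgeries that follow.

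For those tests UMIs were summed per library and type, and the 24 types that had 20 or more nuclei in each library were fitted with edgeR's quasi-likelihood test over all genes, 210284 type-gene pairs in all. After a filter on low counts, 137 pairs of the 7 genes were tested: Gabra2 in 23 types, Gabra3 in 19, Gabra4 in 21, Gabra5 in 14, Gabrb1 and Gabrb2 in 24 each and Gabrd in 12. Drd1 striatal-like and ependymal-like nuclei were too few. With 2 libraries a group, p-values reflect only the spread between these libraries. The 4 contrasts use the same 8 libraries and are not independent of each other.

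No subunit gene changed with TBI, averaged over BCAS, at an adjusted p under 0.05: 0 of 137 pairs, against 0.0105% of all pairs. At an unadjusted p under 0.05 there were 9 of 137 (6.57%), against 4.4% of all pairs, and DESeq2 called 0 with 0 at an unadjusted p under 0.05. The median log2 fold change of the 137 was -0.0031, with 66 higher and 71 lower. For 116 pairs the 95% interval lay within 2-fold in either direction, and for 88 within 1.5-fold, so changes beyond those sizes fall outside the intervals there. The pair with the smallest p-value was Gabra5 in Baiap3 inhibitory-like nuclei. Its levels were 32.1 and 31.8 CPM in control, 41.2 and 41.3 in BCAS, 40.7 and 53.5 in TBI, and 45.7 and 46.0 in BCAS+TBI. Libraries with TBI were mostly higher, and TBI 1 overlaps both BCAS libraries. The log2 fold change was 0.37 (SE 0.13, edgeR, adjusted p = 1.00). Gabra2 in Sst interneuron-like nuclei followed, with 150.0 and 153 CPM in control, 204 and 168 in BCAS, 198 and 246 in TBI, and 224 and 156 in BCAS+TBI. Both TBI libraries exceed both controls, while BCAS+TBI 2 lies just above the controls (log2 fold change 0.31, SE 0.11, edgeR, adjusted p = 1.00). Gabra2 in near-projecting cortical-like nuclei was the third, at 29.9 and 98.1 CPM in control, 80.0 and 68.3 in BCAS, 43.1 and 42.2 in TBI, and 40.1 and 42.6 in BCAS+TBI. Its libraries held 5 to 33 UMIs of the gene, and control 1 is below all those with TBI (log2 fold change -0.81, SE 0.33, edgeR, adjusted p = 1.00). Without control 2 the change was -0.11.

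BCAS, averaged over TBI, likewise gave 0 of 137 calls, against 0.0452% of all pairs. At an unadjusted p under 0.05 there were 7 (5.11%), against 3.77% of all pairs, and DESeq2 called 0 with 3 at an unadjusted p under 0.05. The median log2 fold change was 0.00023, and the 95% interval lay within 2-fold for 122 pairs. Gabrb2 in choroid plexus-like nuclei, an epithelium that makes cerebrospinal fluid, had the smallest p-value. Its levels were 33.8 and 158 CPM in control, 0 and 34.8 in BCAS, 0 and 128 in TBI, and 8.2 and 0 in BCAS+TBI. Control 2 (21 UMIs) and TBI 2 (25 UMIs) hold most of the signal, and the others had 0 to 7 UMIs. The log2 fold change was -3.05 (SE 0.73, 95% interval -4.52 to -1.58, edgeR, adjusted p = 0.162). The alternatives gave adjusted p-values from 0.00117 to 1.00, and 4 of 17 were under 0.05: no filter on low counts (0.00117), adjustment within each type (0.00588), without TBI 1 (0.00958) and without BCAS+TBI 2 (0.0148). Without TBI 2 the change was -0.86, without control 2 it was -5.02, and with doublets kept it was -1.64. In each of these 2 libraries, 2 nuclei with UMI totals more than 3 times their type's median there carried most of the Gabrb2 UMIs. Without them control 2 kept 7 UMIs (65.3 CPM) and TBI 2 kept 3 (18.0 CPM), and the pair no longer passed the count filter. The 5 neuron genes in choroid plexus-like nuclei were also highest in these libraries, at 1608 CPM in control 2 and 1284 in TBI 2 against 315 to 616 in the other 6.

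Gabrb1 in microglia-like nuclei came next for BCAS, with 51.1 and 214 CPM in control, 298 and 171 in BCAS, 53.7 and 132 in TBI, and 209 and 192 in BCAS+TBI. The libraries with BCAS are above 3 of the 4 without it and overlap control 2 (log2 fold change 0.96, SE 0.33, edgeR, adjusted p = 1.00). These values rest on 4 to 30 UMIs a library, and once the nuclei above that total were removed the change was 0.55. With doublets kept it was 0.51. Leaving out 1 library at a time gave 0.60 (BCAS 1) to 1.68 (control 2), with 0.64 without TBI 1. Markers of border macrophages in this type summed to 63.9 CPM in control 1, the lowest, and 1115 in BCAS 1, the highest. The 5 neuron genes there summed to 626 and 600 CPM in control, 1192 and 943 in BCAS, 684 and 1197 in TBI, and 910 and 716 in BCAS+TBI. The part of either in the result was not tested. Gabrd in layer 5 cortical-like nuclei was the third, at 12.1 and 29.7 CPM in control, 59.8 and 34.0 in BCAS, 33.1 and 34.8 in TBI, and 34.0 and 59.3 in BCAS+TBI. The 2 high values are those of BCAS 1 and BCAS+TBI 2, both in the shallower set (log2 fold change 0.58, SE 0.25, edgeR, adjusted p = 1.00). Without control 1 the change was 0.30 and without control 2 it was 1.196.

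The interaction asks whether the change with TBI differed between mice with and without BCAS. It gave 0 of 137 calls, against 0.00904% of all pairs, with 10 (7.30%) at an unadjusted p under 0.05 against 4.84% of all pairs. DESeq2 called 0, with 2 at an unadjusted p under 0.05. The median log2 interaction was -0.12 over the 137 pairs and 0.0042 over all pairs, with 90 of 137 below 0 and 104234 of 210284 below 0. Precision was lower here, with 85 of 137 intervals within 2-fold. Gabra5 in dentate granule-like nuclei stood at 135.9 and 127 CPM in control, 155 and 167 in BCAS, 189 and 136.5 in TBI, and 133 and 98.1 in BCAS+TBI. Both TBI libraries were above both controls and both BCAS+TBI libraries were below both BCAS libraries, and the log2 interaction of -0.80 (SE 0.27, edgeR, adjusted p = 0.870) did not pass. Gabra4 in Rorb mid-layer cortical-like nuclei also had both TBI libraries above both controls, with 144 and 170 CPM in control, 170 and 212 in BCAS, 207 and 185 in TBI, and 184 and 119 in BCAS+TBI. There BCAS+TBI 1 overlaps the BCAS libraries (log2 interaction -0.67, SE 0.23, edgeR, adjusted p = 0.870). Gabra3 in dentate granule-like nuclei, a type with 1 to 22 UMIs of it a library, had a log2 interaction of -2.03 (SE 0.76, edgeR, adjusted p = 0.960), which was -0.14 without TBI 2.

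BCAS+TBI was set directly against TBI, the comparison closest to the title of the series. It gave 0 of 137 calls, against 0.0257% of all pairs, with 11 (8.03%) at an unadjusted p under 0.05 against 4.31% of all pairs, and DESeq2 called 0 with 0 at an unadjusted p under 0.05. The median log2 fold change was -0.045, with 52 higher and 85 lower, beside 0.0011 over all pairs, with 105451 higher and 104833 lower, and 105 intervals lay within 2-fold. Gabrb2 in choroid plexus-like nuclei again had the smallest p-value (log2 fold change -3.65, SE 1.204, edgeR, adjusted p = 0.9751), and without TBI 2 it turned to 0.62. Gabra4 in near-projecting cortical-like nuclei stood at 86.3 and 192 CPM in TBI and 108 and 17.1 in BCAS+TBI, with 150 and 89.2 in control and 112 and 139 in BCAS. The lowest value is 2 UMIs in BCAS+TBI 2, and the groups overlap (log2 fold change -1.03, SE 0.40, edgeR, adjusted p = 1.00). Without BCAS+TBI 1 it was -3.003 and without TBI 2 it was -0.32. Gabrb1 in microglia-like nuclei was higher in both BCAS+TBI libraries than in both TBI libraries (log2 fold change 1.26, SE 0.49, edgeR, adjusted p = 1.00), and after removal of the same high-total nuclei the value was -0.023.

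**Figure D5:**
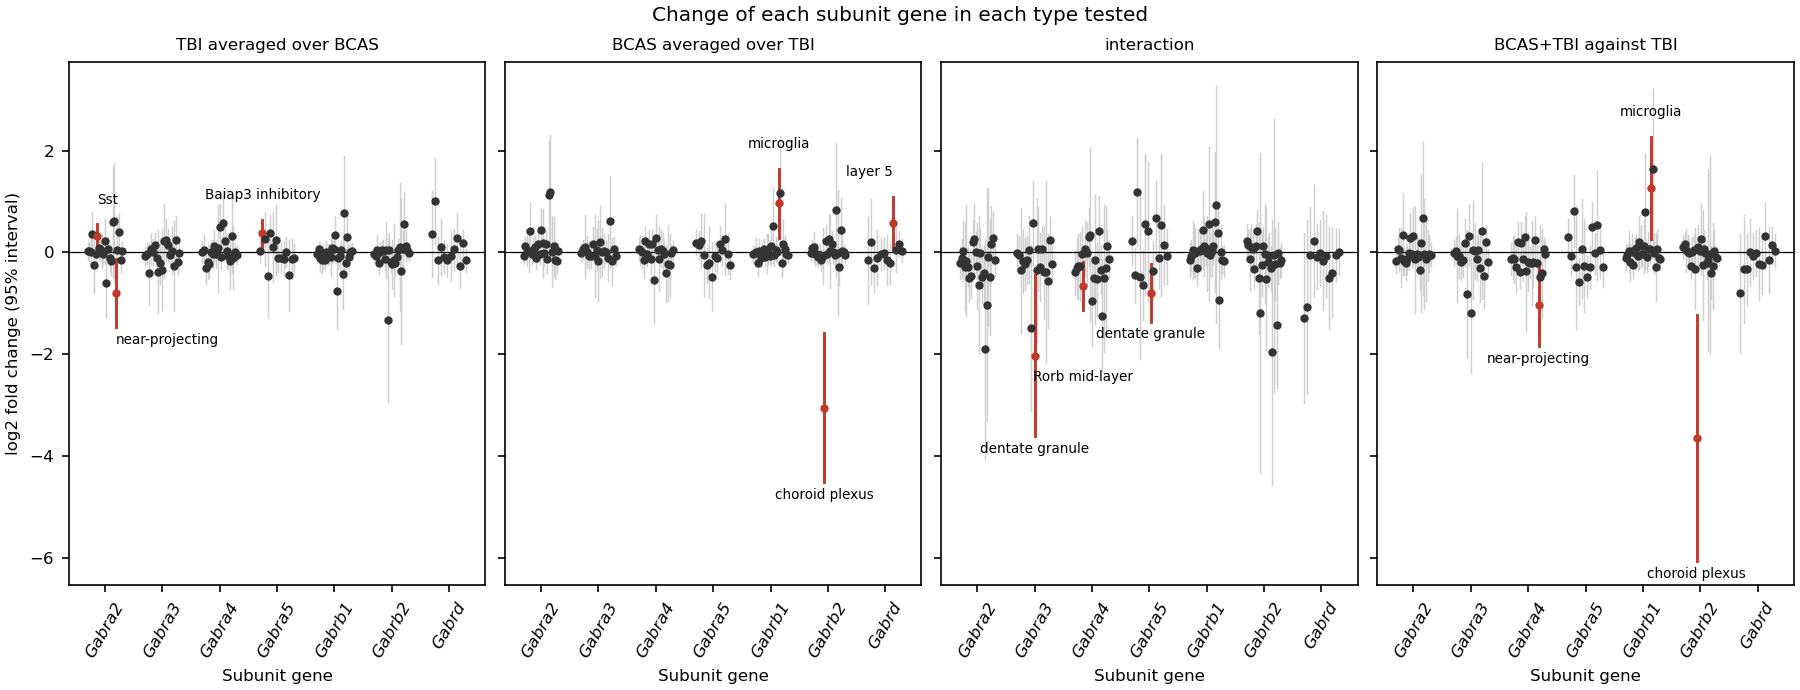
Log2 fold change (points) with its 95% interval (lines) of each subunit gene in each type tested, 137 per panel, for the 4 contrasts, with the 3 pairs of smallest p-value per contrast in red and named by type. Most points lie near 0, and the farthest is Gabrb2 in choroid plexus-like nuclei (-3.05 for BCAS and -3.65 for BCAS+TBI against TBI).

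Other genes of GABA signalling were counted from a list of 25, of which 24 were in the files and tested, in 477 type-gene pairs. The list holds genes that anchor receptors at the synapse (such as Gphn, gephyrin, and Nlgn2), move them to and from the membrane (Gabarap, Trak1), make and load GABA (Gad1, Gad2, Slc32a1), clear it (such as Abat, which breaks it down), move chloride (Slc12a5, Slc12a2) or form the GABA-B receptor (Gabbr1, Gabbr2). In edgeR none of the 477 pairs passed for TBI, BCAS, the interaction or BCAS+TBI against TBI. Unadjusted p-values under 0.05 numbered 13, 18, 31 and 29, or 2.73, 3.77, 6.499 and 6.08%, beside the 4.4, 3.77, 4.84 and 4.31% of all pairs given above. Their median log2 fold changes were -0.034, 0.024, -0.023 and 0.013. Of the roles on the list, GABA synthesis and vesicle loading (43 pairs) had the medians farthest from 0. They were -0.28 for the interaction and -0.29 for BCAS+TBI against TBI, with 32 and 31 of 43 lower. Over all pairs, 104234 and 104833 of 210284 were lower. The 43 pairs are more than inhibitory types alone could give, so they take in types where these RNAs may be free RNA. They share the same 8 libraries and were picked as the farthest, so no fall in GABA synthesis is read from them.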

How the data were processed

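Raw UMI counts were deposited as a matrix of genes by barcodes for each library. Per the file headers, Cell Ranger 7.0.0 produced them; GRCm38 (mm10) and Seurat are named in the submitters' processing notes, and whether introns were counted is not given in the sources used here. A barcode was kept if it had 500 UMIs and 300 genes or more, with no more than 5% of UMIs mitochondrial (4922 of 53390 failed). The 6% of barcodes with the highest Scrublet score in each library (2908) were removed as doublets, since Scrublet's own threshold marked from 0 to 12.8% of barcodes per library. Clusters came from scanpy 1.11.5 (3000 variable genes, 30 principal components, 15 neighbours, Leiden), and neurons were clustered again. Types were named from marker lists, and 22.8% of clustered nuclei stayed unnamed. UMIs were summed per library and type. edgeR 4.0.16 (two-sided quasi-likelihood test, TMM scaling, filterByExpr at its minimum of 10 counts) was fitted per type over all 8 libraries with group and library set, and p-values were adjusted by Benjamini and Hochberg over all type-gene pairs of a contrast, at 0.05. DESeq2 1.42.0 was an alternative. Scripts were tested on simulated data. Levels, the extrasynaptic ratio and correlations carry no test. The subunit genes, the gene lists and the library sets were chosen with earlier results of these data known. Where no pair passed, the 3 subunit-type pairs with the smallest p-values per contrast were named, and for likeness the 3 genes with the highest Pearson r, without predicted genes. Counts are limited by depth, and UMI counts of single types carry counting error on top of the spread between libraries. Gene spans and promoter sequences are RefSeq's for GRCm38.p6. Other subunit genes were not analysed here, and 1 gene of the GABA signalling list is not reported here by name.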

Additional observations from a re-analysis of the deposited data

Results flagged for a closer look

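Nuclei that carried no type name, and so entered no comparison between named types, held 3 levels above those of every library of every named type. Unnamed nuclei of the excitatory class did count among the excitatory neuron-like nuclei to which glial and vascular levels were compared. Gabra2 reached 806.5 CPM in a cluster of 492 excitatory neuron-like nuclei led by Adamtsl1, Arhgap6, Pde11a and Cdh9, beside a highest library value of 691 CPM in any named type. Gabra2 also reached 726 CPM in 62 inhibitory neuron-like nuclei led by Sst, Nos1, Tacr1 and Hhip, left unnamed because they had markers of striatal projection neurons. That value rests on 297 UMIs, and counting error does not set it clearly apart from 691. Gabra3 reached 184 CPM in 78 striatal projection neuron-like nuclei led by Chst9, Erbb4 and Nfib. The highest library value in any named type was 167 CPM. This Gabra3 value rests on 63 UMIs, and counting error on so few does not set it clearly apart from 167. Each value sums the UMIs of all 8 libraries, and single libraries were not compared.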

How the results depend on the processing

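Over 19 other settings of the fit, the count of subunit pairs called stayed at 0 for TBI, the interaction and BCAS+TBI against TBI. For BCAS it was 1 without a filter on low counts and 1 with adjustment within each type, and from 0 to 1 with 1 library left out; the call was Gabrb2 in choroid plexus-like nuclei each time, and the cause was not tested. Of the other genes of GABA signalling, 1 pair was called for BCAS+TBI against TBI without the filter and 1 with adjustment within each type, both chosen after seeing the data; it was Gabbr2 in choroid plexus-like nuclei (log2 fold change -3.40 and -3.41). Of the named pairs, 2 changed sign: Gabrb2 in choroid plexus-like nuclei for BCAS+TBI against TBI (-3.94 to 0.62 with 1 library left out, the last without TBI replicate 2) and Gabrb1 in microglia-like nuclei for the same contrast (-0.023 without high-UMI nuclei).

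Replicate numbers do not pair the libraries. The log CPM of each library was taken as its deviation from the mean of its group, and these deviations were correlated between groups. Those of the same number correlated at 0.55 to 0.68 between control, BCAS and TBI, but at -0.69 to -0.74 with BCAS+TBI. Those of the same library set correlated at 0.55 to 0.74. With 2 libraries a group, both deviations of a group mirror each other. Each value therefore recurs with its sign turned, and the ranges are not separate evidence. With the replicate number as a block in place of the set, 0 subunit pairs were called in all 4 contrasts, and for BCAS the log2 change of Gabrb2 in the choroid plexus-like type was -2.76.

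Of 84 other values of the highest levels, 1 moved by more than the spread over libraries: Gabra3 in Baiap3 inhibitory-like nuclei, 128 CPM when nuclei were thinned to 1000 UMIs. Without Gabra5 the balance was -0.93 in dentate granule-like, -1.40 in upper-layer cortical-like, -2.18 in Vip-like and -3.11 in Baiap3 inhibitory-like nuclei. With each gene weighted alike it was -0.10 in thalamic-like, 0.32 in Lamp5-like, -0.20 in Pvalb-like, 0.66 in dentate granule-like, -1.97 in upper-layer cortical-like, -2.51 in Sst-like, -3.03 in Vip-like and -3.30 in Baiap3 inhibitory-like nuclei, by construction on another scale. The rank order of the 26 types correlated with the main order at a Spearman rho of 0.93 to 0.99 over 6 settings. Low counts limit Gabrd and Gabra5, which were tested in 12 and 14 of 24 types.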

Other observations

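Unnamed clusters extend the profile of the subunit genes. A cluster of 62 nuclei led by Slc6a3, Slc18a2, Ddc and Th, genes of dopamine neurons, had 117 CPM of Gabra3, 83.2 of Gabra2, 202 of Gabrb2 and 1.8 of Gabrd. A cluster of 764 excitatory neuron-like nuclei with Zbtb20 among its leading genes had 212 CPM of Gabra5 and 572 of Gabra2, beside medians of 186 and 536 in hippocampal CA pyramidal-like nuclei, and 13.8 of Gabra3. A cluster of 239 excitatory neuron-like nuclei led by Kctd8, Kcnip1 and Ebf1 had 313 CPM of Gabra2 and 33.3 of Gabra4. In 134 inhibitory neuron-like nuclei with Lamp5 among the leading genes, Gabrb2 reached 1172 CPM, within the range of Lamp5 interneuron-like nuclei. These are sums over 8 libraries, given with no test.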
